A study of Mus musculus with 30 samples.

Results

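The comparison set the second fraction of small intestine epithelium released by EDTA, F2, against the first, F1, in mice that received vehicle. It used 6 of the 30 samples in the series, the F1 and the F2 library of each of 3 mice, which are called mouse 1, 2 and 3 here, and each F2 was compared with the F1 of the same animal. The study profiled the crypt-villus axis after exposure to indolo[3,2-b]carbazole (ICZ), a potent agonist of the aryl hydrocarbon receptor (AHR) that forms from dietary indoles. All animals were female C57BL/6 mice 8 to 10 weeks old, raised on standard chow and moved for 1 week to the semi-purified diet AIN93G, which carries no AHR agonist. They were gavaged with corn oil alone (vehicle) or with 10 µg ICZ in corn oil, and the epithelium was taken off the small intestine in 5 sequential EDTA fractions, F1 to F5, 12 h later. The ICZ mice gave F1 from 2 animals and F2 from 3. No gene was deleted in any group, and the labels name neither the length of each EDTA step nor the part of the small intestine.

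The small intestinal epithelium is a single sheet that renews itself continually. Stem cells at the crypt base divide, their daughters multiply in the crypt wall, and the offspring move up the villus as absorptive enterocytes or as goblet, enteroendocrine and tuft cells until they are shed at the tip, while Paneth cells stay at the crypt base. EDTA binds the calcium that holds epithelial cells to each other and to their support, and in sequential EDTA releases the villus cells usually come off before the crypt cells. Along the villus the enterocytes change what they make: antimicrobial proteins low on the villus, digestive enzymes and nutrient transporters in the middle, and enzymes that break down purine nucleotides at the tip.

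The 6 libraries held 6175472 to 7620163 reads assigned to genes, out of 11185071 to 12367944 reads in the table. Transcripts of the mitochondrial genome took 22.1 to 27.5% of the gene reads. Levels are given in CPM, read counts scaled to the size of each library, and since the libraries sample the 3' end of each transcript, levels of different genes are not compared. The epithelial label was checked on markers. Epcam, the epithelial adhesion molecule, stood at 1451, 1401 and 1257 CPM in F1 of mice 1, 2 and 3 and at 1319.8, 1316 and 1168 CPM in F2. The stromal collagen gene Col1a1 stayed between 0 and 0.677 CPM and the smooth muscle actin gene Acta2 between 0 and 0.142 CPM in these 6 libraries. The summed level of 10 smooth muscle markers was nonetheless 616 to 843 CPM in F1 and 579 to 771 CPM in F2. Nearly all of it was Mylk, a myosin light chain kinase gene that epithelial cells also express, at 834, 738 and 608 CPM and 759.5, 643 and 573 CPM. The AHR target Cyp1a1 was at 0 in 5 of the 6 libraries and at 0.169 CPM in F2 of mouse 1, against 99.9 and 59.3 CPM in the F1 libraries of the ICZ mice, so the treatment labels held for this marker. The goblet cell mucin gene Muc2 was listed at 0 in all 6 libraries. In bulk samples such as these, fewer cells of a type and less RNA per cell cannot be told apart.

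From F1 to F2 the genes of the villus tip, of brush border structure, of sugar and fat uptake, of hormone-producing cells and of the interferon response were more often lower in all 3 mice than higher in all 3, and the reverse held for genes of the stem cell, of dividing cells and of ribosome production. The first step of release was small against the spread between mice, but no smaller than the later steps. Over all 13164 genes tested, the median size of the log2 difference was 0.20, against a median spread between mice of 0.29 (SD of the within-mouse log2 step, n = 3). In the same terms it was 0.19 against 0.30 from F2 to F3, 0.17 against 0.26 from F3 to F4 and 0.17 against 0.30 from F4 to F5. When the spread was estimated from all 15 vehicle libraries with each mouse as a block, 0 of 13164 genes (0%) passed an adjusted p of 0.05 in edgeR's quasi-likelihood test. In that fit the smallest adjusted p was 0.286, and 1444 genes (11%) had an unadjusted p below 0.05. The same fit with DESeq2 called 17 genes.

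In a fit of the 6 F1 and F2 libraries alone, 322 of 12096 genes (2.66%) passed, 94 higher in F2 (0.777%) and 228 lower (1.88%). That fit rests on 2 residual degrees of freedom and on every one of the 3 mice. It called 1972 genes without mouse 1, 65 without mouse 2, 13 without mouse 3 and 0 without the mouse as a block. All 322 genes kept their sign in each of these fits. The fits reuse the libraries that picked the 322 genes, so the shared sign was nearly given in advance and is no support for them. Below, a gene is said to have risen or fallen only where it passed, and the fit in which it passed is named. Per gene group, 16.8% of all tested genes were higher in F2 in all 3 mice and 19.8% were lower in all 3, and the median log2 difference of all genes was 0.01. These shares are the background for the counts that follow. Counts by list from fits without mouse 1, 2 or 3 stand against the 1972, 65 and 13 genes called there in both directions, not against 0.777% and 1.88%. The lists also share some genes and are not independent: Klf4 is on the villus tip and immediate early lists, and Apoa4 and Apob on the villus tip and enterocyte lists. F2 lay wholly above F1, with no overlap between the groups, in 7.32% of genes and wholly below it in 8.26%.

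Mouse 1 took a smaller step than the other two in the genes of dividing cells. The median log2 difference over the 21 tested genes of mitosis was 0.01 in mouse 1, 1.21 in mouse 2 and 0.64 in mouse 3. For the villus tip genes the 3 mice lay close together, at -0.43, -0.65 and -0.47. For the mitosis list the difference sat in F1. Its summed level in F1 was 913 CPM in mouse 1, 452 in mouse 2 and 558 in mouse 3, and in F2 it was 895, 1045 and 925 CPM. For the stem cell list mouse 1 stood apart in F2 instead, with sums of 488, 376 and 448 CPM in F1 and 513, 688 and 660 CPM in F2. The F2 library of mouse 1 also had the highest share of unaligned reads of the 6 libraries, 7.21%, and the lowest share in genes, 55.2%. What set the libraries of mouse 1 apart was not tested.

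**Figure D1:**
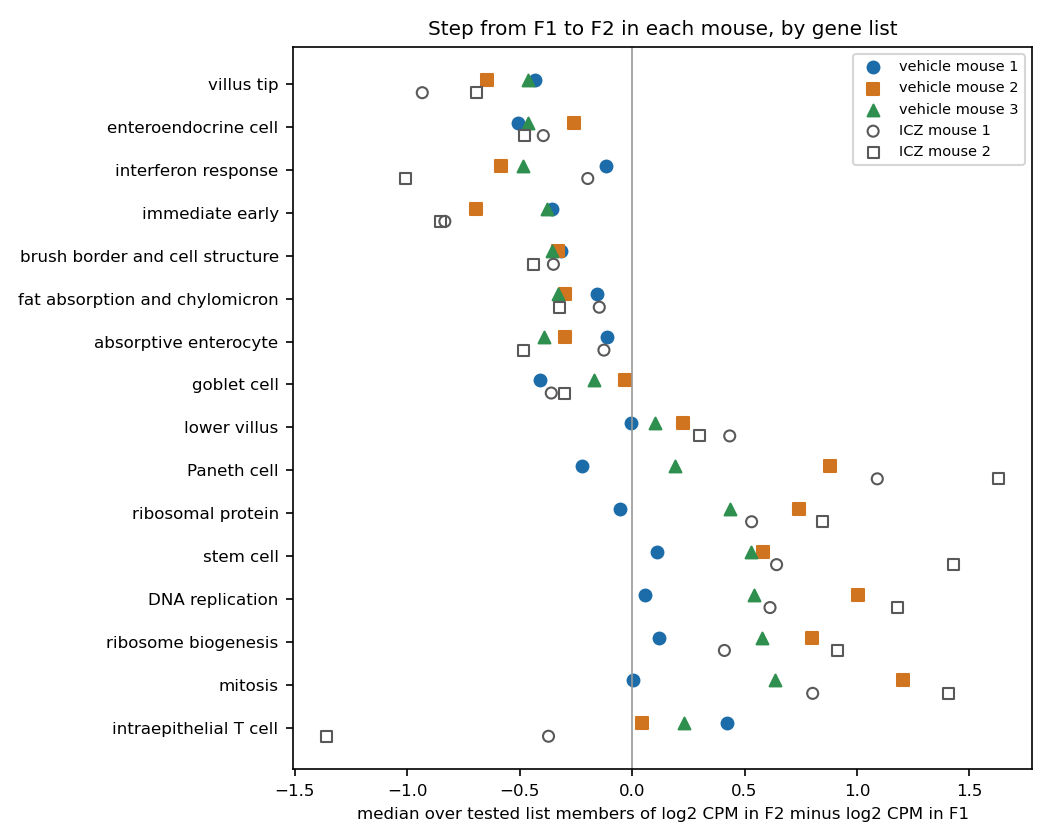
Median over the tested members of each gene list of the log2 CPM in F2 minus that in F1 (x axis), 1 point per mouse, filled for the 3 vehicle mice and open for the 2 ICZ mice with both fractions. The villus tip, brush border and enteroendocrine lists lie left of 0 in all 5 mice, and the mitosis list runs from 0.01 in vehicle mouse 1 to 1.41 in ICZ mouse 2.

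Genes of the villus tip were lower in F2 as a group. Of 19 tested genes, 13 were lower in F2 in all 3 mice and 1 was higher in all 3, and in 12 of them every F2 value lay below every F1 value. The median log2 difference was -0.46, and 11 of 19 fell in the 6 libraries alone, where the background for lower genes was 1.88%. Leaving out mouse 1, 2 or 3 gave 14, 7 and 6 that fell, and 1, 0 and 0 that rose.

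Ada, adenosine deaminase, which turns adenosine into inosine (chr2:163726584-163750239), was at 394, 290.0 and 235 CPM in F1 of mice 1, 2 and 3 and at 170.2, 71.1 and 66.7 CPM in F2. Every mouse had less in F2, and the fractions did not overlap. Its log2 difference was -1.64 ± 0.71 (SE) over all vehicle fractions, adjusted p = 0.45, and -1.67 ± 0.15 in the 6 libraries alone, adjusted p = 0.0028. In F5 Ada stood at 129 ± 142 CPM (SD between mice, n = 3). Why the fit of all vehicle fractions had the larger error was not tested. Nt5e (chr9:88327197-88372092) encodes CD73, the ectoenzyme that makes adenosine from AMP. It went from 24.4, 22.8 and 17.4 CPM to 8.29, 6.39 and 9.72 CPM, again with no overlap, a log2 difference of -1.36 ± 0.29. It had one of the smallest unadjusted p-values of all lower genes, 0.00017 (adjusted p = 0.29, and 0.0064 in the 6 libraries alone). Enpp3, an ectonucleotidase that splits extracellular nucleotides, was at 263, 218 and 203 CPM in F1 and 161, 73.7 and 76 CPM in F2. All 3 of these purine enzymes fell in the 6 libraries alone, with adjusted p = 0.0073 for Enpp3.

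A pair of transcription factors of the mature villus cell moved the same way. Klf4 (chr4:55527143-55532466), a factor of differentiated, non-dividing epithelium, was at 446, 456 and 514 CPM in F1 and at 314, 228 and 299 CPM in F2, a log2 difference of -0.74 ± 0.17 that passed in the 6 libraries alone (adjusted p = 0.0049). Creb3l3, which drives genes of lipid metabolism, had 819.7, 786 and 667 CPM and then 619.6, 534 and 498 CPM (adjusted p = 0.016 in the 6 libraries alone). Neither gene's fractions overlapped. Pmp22, a membrane protein first known from myelin, fell from 71.2, 29.1 and 18.3 CPM to 33, 6.53 and 5.15 CPM within mice, although F1 of mouse 3 lay below F2 of mouse 1. Ifrd1, a transcriptional coregulator, went from 183, 101 and 106 CPM to 93.5, 58.2 and 66.2 CPM (adjusted p = 0.0028 in the 6 libraries alone). Apoa4, an apolipoprotein of chylomicrons that is abundant at the tip, was among the members that were not lower in every animal, with 636, 665 and 466 CPM in F1 and 724, 425 and 313 CPM in F2, higher in F2 of mouse 1 (adjusted p = 0.6, and 0.31 in the 6 libraries alone).

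**Figure D2:**
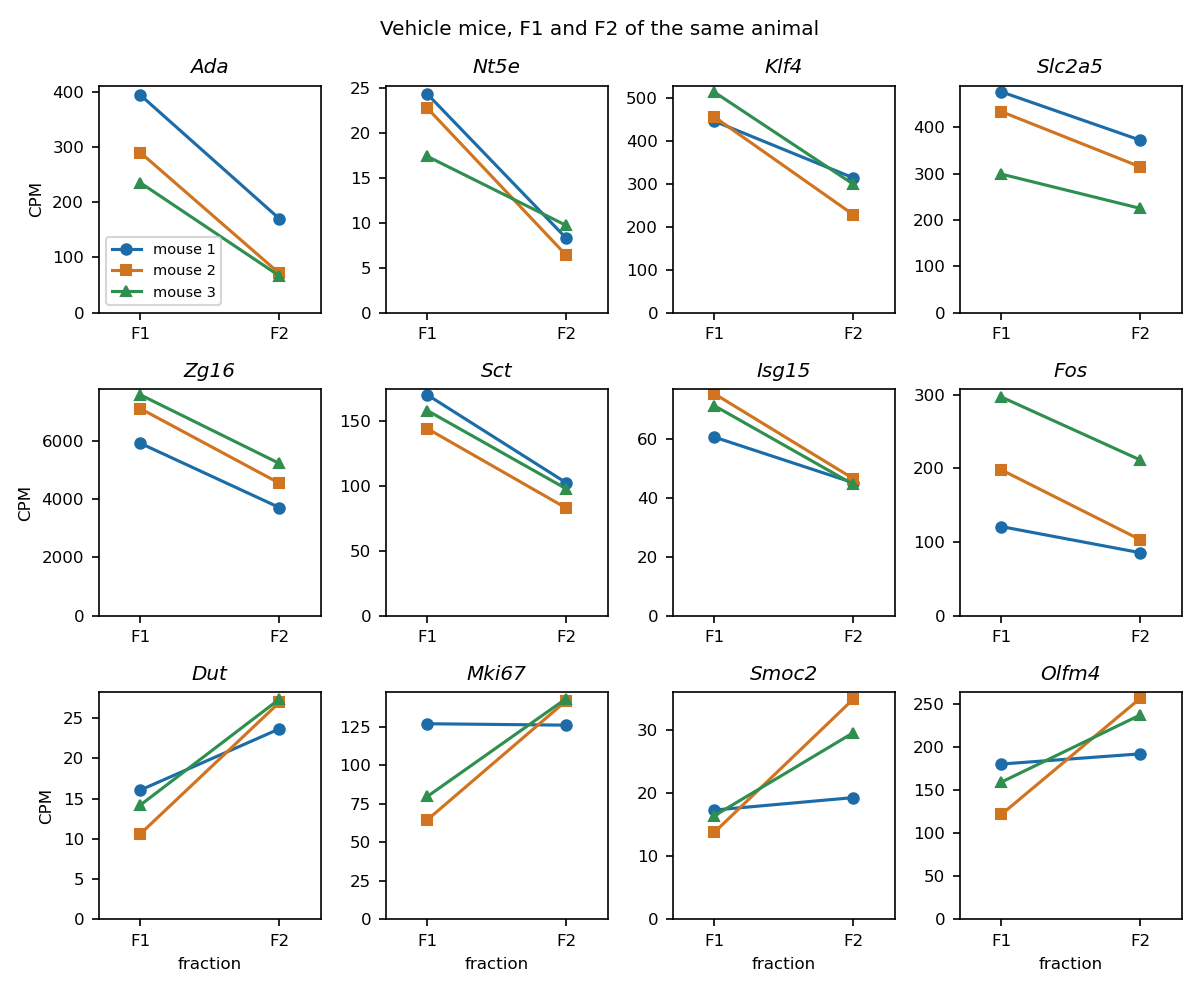
CPM (y axis, linear from 0) in F1 and F2 (x axis) of 12 genes, with 1 line per vehicle mouse. Ada, Nt5e, Klf4, Zg16, Sct and Isg15 are lower in F2 in all 3 mice, and Mki67 is at 127 and 126 CPM in mouse 1 while it is higher in F2 in the other two.

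Since no gene passed over all vehicle fractions, 6 genes of small unadjusted p in each direction are given as values. They had the smallest p among genes averaging 5 CPM or more whose 3 mice shared the direction. Genes with certain provisional names were passed over. The agreement of the mice in these genes was therefore a condition of the choice and is not a result. The lower genes chosen were Nt5e, Mfsd2a, Susd2, Fbln1, RP23-310J6.1 and Klf4. Mfsd2a, a transporter of lysophospholipids, was at 70.3, 45.4 and 51.1 CPM in F1 and 40.4, 29.8 and 35.3 CPM in F2, and Fbln1, an extracellular matrix protein, at 192, 166 and 159 CPM and 130.3, 123 and 106 CPM. Susd2, a membrane protein, was at 35.9, 34.5 and 13.6 CPM and 19.3, 16.8 and 4.42 CPM, with mouse 3 low in both fractions. RP23-310J6.1, named only by its clone, was at 88.8, 131 and 105 CPM and 59.7, 90.8 and 74.8 CPM.

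The higher ones were Ncapg2, Dut, Kcnq1ot1, RP23-278I3.4, Bora and a further gene known only by its clone. Ncapg2, a subunit of the condensin complex that folds mitotic chromosomes (chr12:116405402-116463731), was at 4.29, 3.32 and 3.81 CPM in F1 and at 11.3, 7.1 and 8.98 CPM in F2. Dut, the enzyme that keeps uracil out of new DNA (chr2:125247190-125258608), was at 16.1, 10.6 and 14.2 CPM and 23.7, 27 and 27.4 CPM, and Bora, an activator of mitotic kinases, at 7.2, 5.07 and 3.95 CPM and 10.8, 11.2 and 13.2 CPM. For all 3 every F2 value lay above every F1 value. The long noncoding RNA Kcnq1ot1, which is transcribed antisense inside an imprinted gene, was at 12.7, 15.7 and 18 CPM and 24.7, 23 and 42 CPM. RP23-278I3.4 was at 5.26, 5.54 and 5.42 CPM and 17.6, 10.8 and 9.72 CPM, and the further gene had a log2 difference of 0.88 ± 0.19. Their unadjusted p-values ran from 0.00012 for Ncapg2 to 0.0003 for Bora, all with an adjusted p of 0.29, and all 6 rose in the 6 libraries alone. Whether the counting used strand is not given in the sources used here, so reads of Kcnq1ot1 and of its host gene may not be separable.

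Absorptive enterocytes, the nutrient-absorbing cells that make up most of the villus, were lower by a smaller margin. Of 31 marker genes, 18 were lower in all 3 mice and 2 higher in all 3, with a median log2 difference of -0.25. In the 6 libraries alone 7 fell and 0 rose, and leaving out mouse 1, 2 or 3 gave 23, 0 and 0 that fell. Among 13 genes of sugar digestion and fructose use, 10 were lower in all 3 mice and 3 fell in the 6 libraries alone. Among 17 genes of fat uptake and chylomicron assembly, the counts were 11 and 4. Among 19 genes of peptide digestion and amino acid uptake, they were 8 and 2. Without mouse 1, 2 or 3 the genes that fell numbered 11, 0 and 0 for sugar, 13, 1 and 0 for fat and 9, 0 and 0 for peptides.

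Lct, lactase, was at 2395, 2808 and 2244 CPM in F1 of mice 1, 2 and 3 and at 2091, 1694 and 1446 CPM in F2, and went on to 955 ± 498 CPM (SD, n = 3) in F5. Treh, which splits trehalose, had 187, 175 and 171 CPM and 144, 133 and 113 CPM, and Slc2a5, the fructose transporter GLUT5, 477, 434 and 299 CPM and 372, 315 and 225 CPM. Lct, Treh and Slc2a5 each fell in the 6 libraries alone, with log2 differences of -0.51 ± 0.11, -0.45 ± 0.09 and -0.40 ± 0.08. Sis, sucrase-isomaltase, did not follow them: it was at 3709, 4428 and 3753 CPM in F1 and 4346, 4141 and 3525 CPM in F2, higher in mouse 1 and lower in the others (log2 difference 0.00 ± 0.18, adjusted p = 1).

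Apoc3, an apolipoprotein of triglyceride-rich particles (chr9:46232933-46235636), went from 1832, 2158 and 1475 CPM to 1329, 1195 and 834 CPM with no overlap, a log2 difference of -0.73 ± 0.22. The long-chain fatty acid transporter gene Slc27a4 was at 723, 609 and 525 CPM in F1 and 551, 413 and 365 CPM in F2. Both passed in the 6 libraries alone (adjusted p = 0.0052 and 0.013). Fabp1, the liver-type fatty acid binding protein, differed little, with 5173, 5568 and 3652 CPM in F1 and 5069, 5033 and 3345 CPM in F2 (log2 difference -0.10 ± 0.16, adjusted p = 0.86). Within the fat uptake genes, then, some passed in the 6 libraries alone and others did not.

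Alpi, the intestinal alkaline phosphatase, shows how animals can differ while the step is shared. It was at 856, 1297 and 1904 CPM in F1 and at 659.7, 1012 and 1206 CPM in F2, so that F2 of mouse 3 lay above F1 of mouse 1, yet each animal had less in F2. The log2 difference was -0.49 ± 0.56 over all vehicle fractions (adjusted p = 0.8) and -0.46 ± 0.09 in the 6 libraries alone (adjusted p = 0.021).

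The actin-based structure of the brush border was lower as a group too. Of 19 genes, 13 were lower in all 3 mice and 1 higher in all 3, 6 fell in the 6 libraries alone, and the median log2 difference was -0.32. Leaving out mouse 1, 2 or 3 gave 14, 1 and 0 that fell. Espn, the actin-bundling protein espin, was at 396, 371 and 391 CPM in F1 and 304, 229.7 and 247 CPM in F2. Krt20, the keratin of differentiated intestinal epithelium, was at 1781, 1462 and 1234 CPM and 1354, 954 and 845 CPM (adjusted p in the 6 libraries alone 0.0097 and 0.011).

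HNF4 factors bind DNA near enterocyte genes, and the sequence CAAAGTCCA, read on both strands, was searched in the 250 bases before the start of each gene in RefSeq (GRCm38.p6). It was found for 3 of 29 enterocyte markers with an entry (10.3%), against 0.451% of all 27025 genes. The 3 were Alpi, Treh and Slc3a1, of which Slc3a1 did not pass in the 6 libraries alone. Lct, Slc2a5, Krt20, Slc6a19 and Ggt1 fell there without a match. The stretches of Alpi (chr1:87101607-87101726, minus strand) and Treh (chr9:44673113-44673232, plus strand), 120 bases up to the start site, are shown since both genes fell in the 6 libraries alone, with the match in capitals.
Alpi: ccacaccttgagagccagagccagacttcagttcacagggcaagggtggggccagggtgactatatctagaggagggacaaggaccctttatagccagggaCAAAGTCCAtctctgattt
Treh: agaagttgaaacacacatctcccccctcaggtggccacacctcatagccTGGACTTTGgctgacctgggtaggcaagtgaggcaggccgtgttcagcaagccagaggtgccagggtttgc
A match is a run of letters, and binding was not measured.

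The secretory lineages did not move as one. Goblet cells, which make mucus, had 5 of 14 tested markers lower in all 3 mice and 0 higher in all 3, with a median of -0.11. The 4 that fell in the 6 libraries alone were the genes of mucus proteins Zg16, Clca1 and Fcgbp and of the trefoil peptide Tff3. Leaving out mouse 1, 2 or 3 gave 5, 1 and 0 that fell, and 2, 0 and 0 that rose. Zg16, a lectin of the mucus layer (chr7:127050156-127087328), went from 5909, 7097 and 7567 CPM to 3709, 4543 and 5220.4 CPM and on to 2093 ± 623 CPM (SD, n = 3) in F5. Tff3 was at 1884, 2394 and 2650.1 CPM in F1 and 1269, 1787 and 1951 CPM in F2. In every mouse both were lower in F2, although for Tff3 the F2 value of mouse 3 exceeded the F1 value of mouse 1. Clca1 and Fcgbp had log2 differences of -0.55 ± 0.25 and -0.43 ± 0.15 (adjusted p = 0.0064 and 0.017 in the 6 libraries alone).

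Enteroendocrine cells release gut hormones. 13 of their 17 tested markers were lower in all 3 mice, 1 was higher in all 3, and the median was -0.44. Sct, secretin, was at 170.0, 144 and 158 CPM in F1 and 102, 82.9 and 97.7 CPM in F2, a log2 difference of -0.73 ± 0.09 in the 6 libraries alone (adjusted p = 0.0028). Ghrl, ghrelin, was nearly equal across animals, at 77.8, 75.5 and 77.6 CPM and then 53.1, 51.5 and 46.5 CPM. Nts, neurotensin, went from 44.7, 44.8 and 20.8 CPM to 26.1, 24 and 8.1 CPM, with mouse 3 low in both fractions. Sst, somatostatin, was at 146, 196 and 204 CPM and 94.9, 152 and 124 CPM, where F2 of mouse 2 lay above F1 of mouse 1. Together with Cck, cholecystokinin, these were the 5 hormone genes that fell in the 6 libraries alone, and leaving out mouse 1, 2 or 3 gave 9, 5 and 0 genes of the list that fell. Tuft cells, chemosensory cells, had 6 of 10 markers lower in all 3 mice and 0 that fell.

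Paneth cell genes, which encode antimicrobial peptides made at the crypt base, gave no shared step in vehicle mice. Of 13 tested, 2 were higher and 1 lower in all 3 mice. In the 6 libraries alone 0 of 12 rose and 1 fell. Leaving out mouse 1, 2 or 3 gave 7, 0 and 0 that rose and 1, 1 and 0 that fell. The medians of mice 1, 2 and 3 were -0.22, 0.88 and 0.19. Lyz1, lysozyme, was at 1066, 597 and 1157 CPM in F1 and 879, 1091 and 1327 CPM in F2, lower in mouse 1 and higher in the others, and stood at 2569 ± 874 CPM (SD, n = 3) in F3. The defensin gene Defa17 was at 1416, 721 and 1509 CPM and 1503, 1463 and 1884 CPM, and as a member of a family of near-identical genes its count is uncertain. Guca2b, the guanylin-family peptide uroguanylin, stood on the same list and went the other way, from 1996, 2225 and 1767 CPM to 1420.5, 1506 and 1162 CPM (adjusted p = 0.0064 in the 6 libraries alone).

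**Figure D3:**
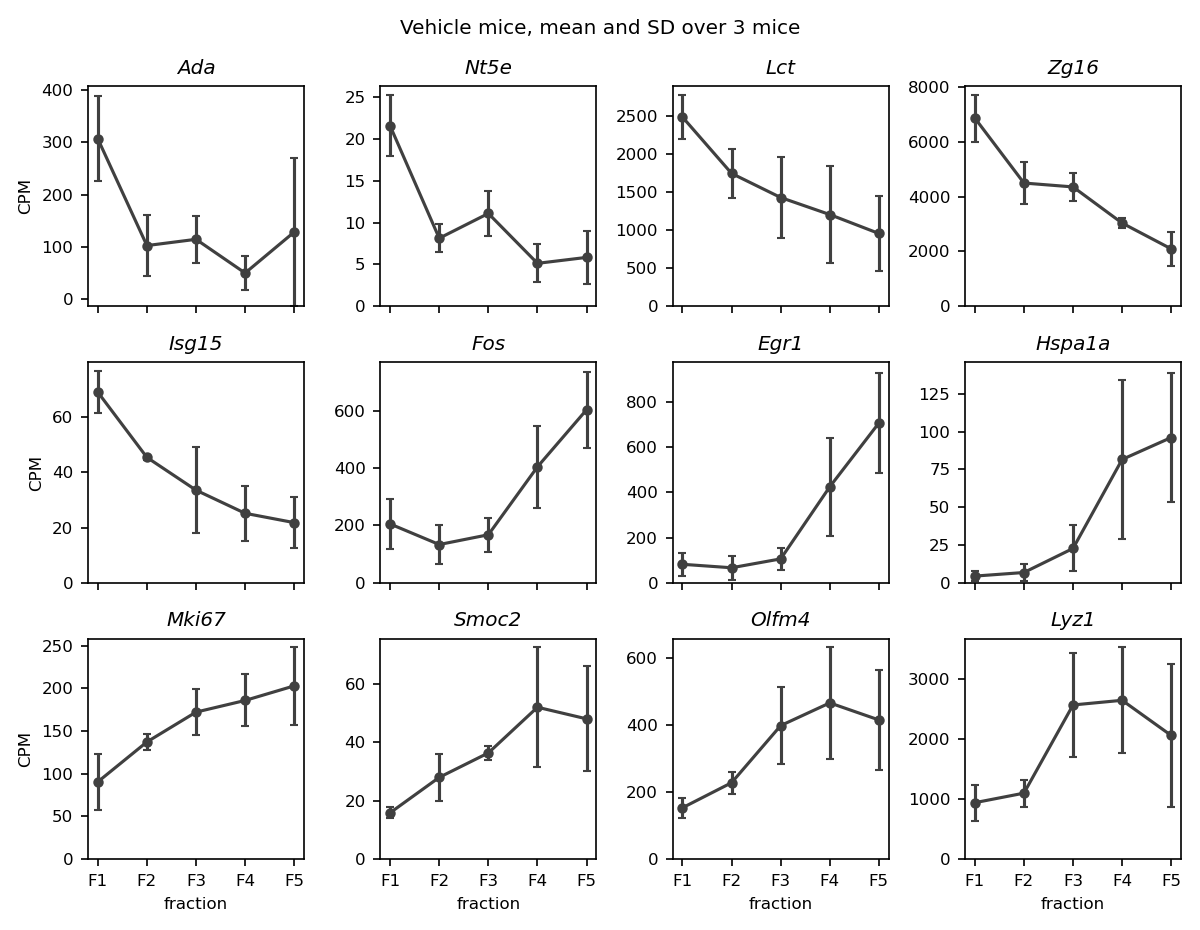
Mean CPM (y axis, linear) with SD over 3 vehicle mice in F1 to F5 (x axis) for 12 genes. Zg16 and Isg15 step down from each fraction to the next, Lyz1 is at 1099 CPM in F2 and 2569 CPM in F3, and Fos and Egr1 have their highest means in F4 and F5.

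Interferon-response genes, which encode antiviral proteins, were lower in F2. Of 21 tested, 13 were lower in all 3 mice, 0 were higher in all 3, 10 had no overlap between the fractions, and 5 fell in the 6 libraries alone. That last count was 15 without mouse 1, 1 without mouse 2 and 0 without mouse 3. The medians of the 3 mice were -0.12, -0.58 and -0.49.

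These genes are usually switched on through a shared promoter element, and GAAANNGAA, read on both strands with overlapping matches allowed, stood in the 250 bases before the start of 11 of the 16 listed genes with a RefSeq entry (68.8%), against 8.18% of all genes. In the 6 libraries alone Rsad2 fell with a match too, and Irf7 fell without one. The 150 bases before the start of Isg15 (chr4:156200819-156200968, minus strand), Ifit1 (chr19:34640739-34640888, plus strand) and Bst2 (chr8:71537473-71537622, minus strand) are shown because these 3 fell in the 6 libraries alone, with the matches in capitals.
Isg15: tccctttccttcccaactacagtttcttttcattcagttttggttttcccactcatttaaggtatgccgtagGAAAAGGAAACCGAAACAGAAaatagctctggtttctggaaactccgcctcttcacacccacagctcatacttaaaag
Ifit1: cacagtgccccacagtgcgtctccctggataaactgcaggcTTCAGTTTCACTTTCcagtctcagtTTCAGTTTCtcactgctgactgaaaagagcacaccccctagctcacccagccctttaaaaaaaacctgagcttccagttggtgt
Bst2: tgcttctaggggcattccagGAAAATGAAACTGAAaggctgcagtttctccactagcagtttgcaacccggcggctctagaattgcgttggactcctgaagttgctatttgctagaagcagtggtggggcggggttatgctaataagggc

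Isg15, a ubiquitin-like protein that is joined to other proteins, was at 60.6, 75.4 and 71.3 CPM in F1 and at 45.2, 46.6 and 44.6 CPM in F2, and its mean went down to 21.8 ± 9.16 CPM (SD, n = 3) in F5. Ifit1, which binds foreign RNA, was at 153, 197 and 243 CPM and 129, 129.6 and 122 CPM, and Bst2, which tethers virus particles, at 44.6, 51.3 and 57.4 CPM and 24.5, 28.1 and 41.7 CPM. For all 3 the fractions did not overlap. Irf7, the transcription factor that amplifies the response, was at 127, 139.6 and 134 CPM and 77.5, 86.3 and 90.5 CPM, a log2 difference of -0.65 ± 0.19 with an adjusted p of 0.33 over all vehicle fractions and 0.0052 in the 6 libraries alone.

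Antigen presentation was lower as well. The list of class I presentation held 8 of 13 genes that were lower in all 3 mice and 4 that fell in the 6 libraries alone. B2m, the shared light chain of class I molecules, was at 7670.5, 8749 and 7377 CPM in F1 and 6597, 5417 and 5134 CPM in F2. All 7 tested class II genes were lower in all 3 mice, and 3 fell in the 6 libraries alone. Without mouse 1, 2 or 3 the genes that fell numbered 9, 0 and 0 for class I and 5, 1 and 0 for class II. Cd74, the invariant chain, was at 379, 76.1 and 152 CPM and 301, 60.6 and 97.3 CPM: mouse 1 had more than the other two in both fractions, and each mouse had less in F2. The antimicrobial lectin genes Reg3b and Reg3g differed less, with log2 differences of -0.16 ± 0.17 and -0.15 ± 0.13 (adjusted p = 0.78 and 0.71).

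Class II genes are also expressed by some immune cells, so lists of immune cell markers were looked at. Of 17 tested markers of the T cells that live between the epithelial cells, 8 were higher in F2 in all 3 mice. None was lower in all 3, and none rose or fell in the 6 libraries alone. Their summed level was 431, 733 and 1201 CPM in F1 and 614, 761 and 1397 CPM in F2 of mice 1, 2 and 3. Cd3g, of the T cell receptor complex, was at 6.51, 12.3 and 14.1 CPM and 7.95, 11.9 and 19.1 CPM, and Ptprc, the pan-leukocyte protein CD45, at 26.3, 42.6 and 67.6 CPM and 35.5, 33.4 and 86 CPM. The summed level of 12 macrophage and dendritic cell markers was 26.6 to 84.6 CPM in F1 and 33.3 to 83.2 CPM in F2. Of 6 tested B and plasma cell markers, 3 were higher in all 3 mice, 0 were lower in all 3, and 0 passed in the 6 libraries alone. The summed level of the 11 listed was 156, 145 and 564 CPM in F1 and 144, 182 and 583 CPM in F2 of mice 1, 2 and 3. For the haemoglobin gene Hbb-bs the values were 4.15, 4.59 and 13.2 CPM in F1 and 3.04, 4.54 and 7.95 CPM in F2. The part of immune cells in the class II result was not tested.

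Immediate early genes, which cells switch on within minutes of a stimulus, were lower in F2 and stood higher at the end of the release. Of 19 tested, 14 were lower in F2 in all 3 mice and 0 were higher in all 3, with a median of -0.42, and 5 of 16 fell in the 6 libraries alone (11, 1 and 0 without mouse 1, 2 or 3). At the last step, from F4 to F5, the median of the same genes was 0.67, and 1 of them, the nuclear receptor gene Nr4a1, was among the 9 of 13164 genes (0.0684%) that rose there. Fos (chr12:85473890-85477273), a subunit of the AP-1 transcription factor, was at 121, 198 and 297 CPM in F1 and at 85.6, 103 and 211 CPM in F2. Each mouse had less in F2 although the animals overlapped, and later means were 405 ± 142 CPM in F4 and 604 ± 132 CPM in F5 (SD, n = 3). Atf3, a stress-induced repressor, was at 28.7, 38.5 and 76.1 CPM and 19.6, 16.9 and 42 CPM, and Jun, the partner of Fos, at 138, 205 and 288 CPM and 103, 135 and 235 CPM. Both fell in the 6 libraries alone (adjusted p = 0.011 and 0.031). Egr1, another early transcription factor, was lower in F2 in each mouse, with a log2 difference of -0.31 ± 0.28 and an adjusted p of 0.72. The CArG box, the element through which serum response factor switches on many of these genes, stood in the 250 bases before the start of 2 of 16 listed genes with an entry (12.5%), against 1.62% of all genes. The 2 were Egr2 and Zfp36. None of Fos, Fosb, Jun, Atf3 and Klf4, the 5 that fell in the 6 libraries alone, held it.

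The difference between the first and the last step was tested directly in the 15 vehicle libraries. It passed for 4 of 13164 genes (0.0304%), all with the lower log2 change at the first step. These were Fos (log2 difference of the steps -1.27 ± 0.21, adjusted p = 0.035), the RNA-destabilizing protein gene Zfp36 (-1.04 ± 0.17, adjusted p = 0.035), Vcl, which encodes the adhesion protein vinculin (-1.99 ± 0.32, adjusted p = 0.035), and the Y RNA Rny3 (-2.20 ± 0.33, adjusted p = 0.031). Zfp36 was at 91.7, 142 and 126 CPM in F1 and 74.4, 87.9 and 101 CPM in F2, then 233 ± 28.6 CPM in F5. Vcl hardly differed at the first step (log2 difference -0.16 ± 0.23), and went from 6.06 ± 0.656 CPM in F4 to 21.3 ± 4.24 CPM in F5. Rny3 was at 6.92, 10.8 and 12.7 CPM in F1 and 3.72, 6.53 and 4.71 CPM in F2, with 19.8 ± 7.15 CPM in F5. The number of such genes was 21 without mouse 1, 0 without mouse 2, 2 without mouse 3 and 0 without the mouse as a block, and Fos and Zfp36 missed the threshold without any one of the mice (adjusted p = 0.081 to 0.60 and 0.055 to 0.78).

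**Figure D4:**
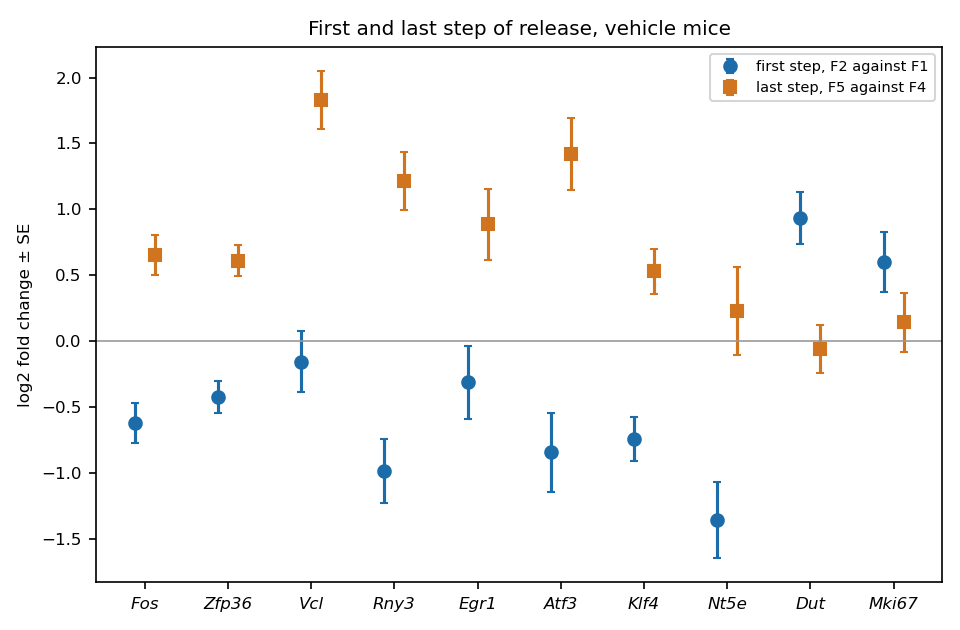
Log2 fold change with SE over all vehicle fractions (y axis) of 10 genes (x axis), at the first step (F2 against F1, circles) and at the last (F5 against F4, squares). Fos is at -0.62 and 0.65, and Dut and Mki67 lie above 0 at the first step and near 0 at the last.

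Of the 2 lists that hold protein-folding genes, 1 was more often higher than lower in F2 and the other was mixed. Among 14 heat shock genes, 5 were higher and 1 lower in F2 in all 3 mice, with a median of 0.24, and 1 rose in the 6 libraries alone (7, 0 and 0 without mouse 1, 2 or 3). Among 19 genes of endoplasmic reticulum stress and the amino acid response, 7 were higher and 4 lower in all 3 mice, with a median of 0.07. In the 6 libraries alone 2 of them rose and 0 fell, and 5, 0 and 0 rose and 2, 0 and 0 fell without mouse 1, 2 or 3. Hspa1a, the inducible chaperone HSP70, was at 0.554, 6.17 and 6.44 CPM in F1 and 0.169, 9.08 and 11 CPM in F2, nearly absent in mouse 1, and reached 96.2 ± 42.9 CPM (SD, n = 3) in F5. Hsp90b1, a chaperone of the endoplasmic reticulum on the latter list, was at 445, 369 and 444 CPM in F1 and 587, 539 and 517 CPM in F2 with no overlap, and rose in the 6 libraries alone (log2 difference 0.39 ± 0.09, adjusted p = 0.035).

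Crypt genes were higher in F2, chiefly in mice 2 and 3. Of 17 tested stem cell genes, 7 were higher in all 3 mice, 0 were lower in all 3, and 4 of 15 rose in the 6 libraries alone, where the background for higher genes was 0.777%. The medians were 0.11, 0.58 and 0.53 in mice 1, 2 and 3. Leaving out mouse 1 gave 8 genes that rose, and leaving out mouse 2 or mouse 3 gave 0. Olfm4, a secreted glycoprotein that marks crypt base cells (chr14:79984081-80023139), was at 180.0, 121 and 159 CPM in F1 and 192, 256 and 237 CPM in F2. Its 3 F2 values lay above its 3 F1 values, and its mean went on to 467 ± 166 CPM (SD, n = 3) in F4. Smoc2, a matricellular protein of the stem cell signature, was at 17.3, 13.8 and 16.4 CPM and 19.3, 34.9 and 29.6 CPM, and Cdca7, a Wnt-responsive chromatin factor, at 12.7, 12.2 and 13.3 CPM and 18.3, 23.7 and 20.5 CPM. The sodium-potassium-chloride cotransporter gene Slc12a2 was at 92.2, 61.9 and 76.9 CPM and 108, 127 and 132 CPM. All 4 rose in the 6 libraries alone, with adjusted p = 0.049 for Olfm4 and 0.014 for Slc12a2.

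Lgr5, the R-spondin receptor that defines the cycling stem cell, split between the animals. It was at 3.88, 5.07 and 3.51 CPM in F1 and 2.2, 7.52 and 8.39 CPM in F2, lower in mouse 1 and higher in the others, a log2 difference of 0.46 ± 0.29 (adjusted p = 0.6). Ascl2, the stem cell transcription factor, was at 3.46, 2.53 and 4.25 CPM and 3.04, 6.1 and 10.7 CPM, with the same split between the animals. Of 14 genes of Wnt signalling, the pathway that maintains the stem cells, 5 were higher and 1 lower in all 3 mice. Leaving out mouse 1, 2 or 3 gave 5, 0 and 0 that rose and 1, 0 and 0 that fell. In the 6 libraries alone 2 rose. One of these was Cd44, a receptor for hyaluronan, at 5.95, 5.86 and 9.96 CPM in F1 and 12.5, 10.8 and 16 CPM in F2.

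Genes of dividing cells were higher in F2, again chiefly in mice 2 and 3. Of 21 mitosis genes, 11 were higher in all 3 mice, 0 lower in all 3, and 9 had no overlap between the fractions. In the 6 libraries alone 2 of 20 rose, and leaving out mouse 1, 2 or 3 gave 17, 0 and 0. Of 20 DNA replication genes, 8 were higher in all 3 mice and 2 rose in the 6 libraries alone, and 13, 0 and 0 did without mouse 1, 2 or 3. Mki67, the proliferation marker Ki-67 (chr7:135689784-135716361), was at 127, 64.6 and 79.8 CPM in F1 and 126, 142 and 144 CPM in F2: the 3 F2 values were close together, and in F1 mouse 1 already stood at its F2 level. Its log2 difference was 0.60 ± 0.23 (adjusted p = 0.38, and 0.08 in the 6 libraries alone). Tpx2, which builds the mitotic spindle, was at 26.6, 12.3 and 15.2 CPM and 31, 32.6 and 25.2 CPM, and Mcm3, a subunit of the replicative helicase, at 25.8, 12.7 and 16.4 CPM and 32.1, 27.5 and 30.0 CPM. Both rose in the 6 libraries alone (adjusted p = 0.049 and 0.031). Cdc20, the activator of the anaphase-promoting complex, was at 3.32, 1.42 and 2.64 CPM and 2.88, 7.1 and 4.86 CPM and did not pass.

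Promoters of mitosis genes often carry CCAAT boxes and a TTTGAA element. In the 250 bases before the start, CCAAT on either strand stood in 16 of 18 listed genes with an entry (88.9%), against 37.5% of all genes, and TTTGAA in 8 of 18 (44.4%), against 18.3%. For the replication genes the E2F motif TTTNNCGC was present in 7 of 19 (36.8%), against 4.94%. These shares are of the lists, not of the genes that rose. Dut and Mcm3, the replication genes that rose in the 6 libraries alone, held no E2F match. Nusap1, a mitosis gene that rose there, held neither CCAAT nor TTTGAA, and Mki67 and Cdc20 did not pass there. The stretches of Mki67 (chr7:135716450-135716569, minus strand, 190 to 71 bases before the start) and Cdc20 (chr4:118437344-118437463, minus strand, the last 120 bases before the start) are shown with both elements in capitals, since they hold several of them close together.
Mki67: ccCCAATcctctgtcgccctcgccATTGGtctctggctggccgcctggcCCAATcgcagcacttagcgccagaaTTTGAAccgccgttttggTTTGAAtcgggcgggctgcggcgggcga
Cdc20: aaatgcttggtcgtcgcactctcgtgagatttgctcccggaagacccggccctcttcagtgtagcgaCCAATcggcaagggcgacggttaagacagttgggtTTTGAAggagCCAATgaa

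Genes of ribosome production were higher in F2 as well. Of 20 genes of ribosome biogenesis, 10 were higher in F2 in all 3 mice and 0 lower in all 3, with a median of 0.49, and 2 rose in the 6 libraries alone (12, 1 and 0 without mouse 1, 2 or 3). Ncl, nucleolin, the main protein of the nucleolus, was at 441, 263 and 319.8 CPM in F1 and 538, 491 and 506 CPM in F2 with no overlap (log2 difference 0.62 ± 0.10, adjusted p = 0.0083 in the 6 libraries alone), and its mean was 748 ± 189 CPM (SD, n = 3) in F5. Of 27 ribosomal protein genes, 11 were higher in all 3 mice and 1 was lower in all 3. These genes have many processed copies in the genome, which makes their single values uncertain. Between the crypt and the tip, the lower villus list gave a median of 0.13, with 6 of 16 genes higher and 2 lower in all 3 mice. Cps1, the first enzyme of the urea cycle, was at 158, 123 and 153 CPM and 174, 214 and 189.6 CPM (adjusted p = 0.056 in the 6 libraries alone).

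The ICZ mice gave the same step in other animals, none of whose libraries entered the vehicle comparison. There 1247 of 13328 genes (9.36%) passed, 809 higher in F2 (6.07%) and 438 lower (3.29%). When the mitochondrial and most abundant genes were left out of the scaling the split was 666 higher to 548 lower. This count leaned on the animals: it was 2474 without the first ICZ mouse, 34 without the second and 0 without the third, which has no F1 library, and 443 without the mouse as a block. Of the 94 genes that rose in the 6 vehicle libraries, 93 had the same sign in the ICZ mice and 61 also rose there, 64.9% of the vehicle genes and 7.54% of the ICZ genes. Of the 228 that fell, 226 had the same sign and 118 also fell, 51.8% and 26.9% in the same terms. Over all 12022 genes tested in both, 68.4% had the same sign. The exceptions were Rgs1, a regulator of G protein signalling in immune cells, among the genes that rose, and Chkb, a choline kinase, and RP23-89C10.1 among those that fell, all 3 singled out after their values were seen.

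**Figure D5:**
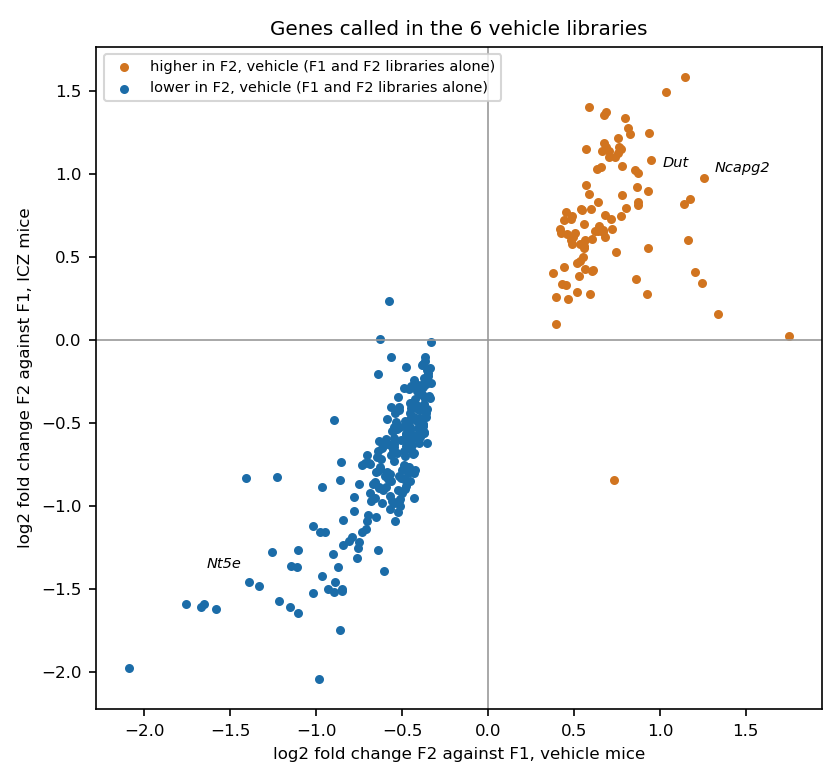
Log2 fold change of F2 against F1 in vehicle mice (x axis, 6 libraries alone) and in ICZ mice (y axis) for the 322 genes that passed in the 6 vehicle libraries, 1 point per gene. Of the 94 points right of 0 on the x axis 93 lie above 0 on the y axis, and of the 228 left of it 226 lie below.

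For single genes the step in the ICZ mice can be set beside that in the vehicle mice. Klf4 fell in the ICZ mice by 1.25 on the log2 scale (adjusted p = 0.003), Susd2 by 1.36 (adjusted p = 0.0069) and Apoc3 by 1.14 (adjusted p = 0.011). Dut rose by 1.08 ± 0.22 (SE, adjusted p = 0.0081), Mki67 by 0.99 ± 0.18 (adjusted p = 0.006) and Olfm4 by 1.40 ± 0.34 (adjusted p = 0.035). Ada had a log2 difference of -1.61 ± 0.59, close to that in the vehicle mice, but an adjusted p of 0.13. By list, 17 of 21 mitosis genes, 10 of 17 stem cell genes and 9 of 13 Paneth cell genes rose in the ICZ mice, and 9 of 19 villus tip genes fell. Lyz1, for which the vehicle mice were split, rose by 1.36 ± 0.31 (adjusted p = 0.021).

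Whether the step differed between the treatments was tested gene by gene in all 29 assigned libraries, and 0 of 14067 genes (0%) passed in edgeR, voom or DESeq2, with a smallest adjusted p of 0.686 in edgeR and 953 genes (6.77%) at an unadjusted p below 0.05. Lists that passed more often in the ICZ mice are therefore not shown to differ from the vehicle mice. For Lyz1 the difference between the treatments was 1.17 ± 0.48 on the log2 scale (adjusted p = 0.73), and for Mki67 it was 0.40 ± 0.33 (adjusted p = 0.81). The intraepithelial T cell list had a median of 0.23 in the vehicle mice and -1.12 in the ICZ mice, with 1 of 17 genes that fell in the latter and 0 that passed the test of the difference.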

How the data were processed

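Total RNA of the fractionated epithelium was made into QuantSeq 3' mRNA libraries, per the labels' protocols. The authors deposited whole-number read counts per gene, 54146 genes by 30 samples; BWA 0.7.17-r1188, SAMtools 1.10, HTSeq 0.11.2 and FastQC 0.11.2 with builds GRCm38.p6 and mm10 are named in the submitters' processing notes. Whether strand was used in counting is not stated there. The 5 summary lines of the count table (reads in no gene, ambiguous, of low quality, unaligned or aligned more than once) were left out of library sizes and tests; in the 6 F1 and F2 vehicle libraries 55.2 to 61.6% of the counted reads fell in genes.

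Groups came from the sample labels, and 1 sample labelled as undetermined entered no comparison. Counts of the 15 vehicle libraries were fitted with edgeR 4.0.16 (filterByExpr, TMM scaling, glmQLFit with robust estimates, glmQLFTest) in R 4.3.3, with mouse as a block, since the labels give the fractions of a mouse the same animal number. In F1 and F2, deviations of the same mouse correlated at 0.191, 0.093 and 0.390 over genes, those of different mice at -0.291 to 0.085. The deviations were taken from the mean of the 3 mice. Values of the same and of different mice are therefore tied to each other and do not test the pairing. P-values were adjusted by Benjamini-Hochberg and called at 0.05. The same model gave F2 against F1 in the 14 ICZ libraries, the difference between treatments in 29, and F5 against F4 and its difference from the first step in vehicle mice. The 6 F1 and F2 libraries alone, and fits of F1 and F2 of 5 mice, were alternatives, as were DESeq2 1.42.0, limma voom 3.58.1, other scaling, no filter and leaving out each animal. Replicates were compared first: every pair differed by more than sampling noise. With 3 pairs an exact test of a single value cannot go below p = 0.25.

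CPM used TMM factors over 29 libraries. ± after a log2 value is its SE. On simulated counts with the 6 libraries' depth, 66 of 95 genes changed by 1 on the log2 scale were recovered (69.5%). Of those changed by 2, 89 of 95 were (93.7%), beside 18 false calls among 12275 genes. With 15 libraries the counts were 62 of 99 (62.6%) and 91 of 99 (91.9%), beside 9 false calls among 12959 genes. False calls thus made up a larger part of all calls with the 6 libraries. The simulated mice shared the same mean and the same step for each gene. These shares therefore do not give the power in the real mice, whose steps differed. Gene positions are from GENCODE in GRCm38, and promoter sequences from RefSeq. Named genes were the 15 per direction of largest change among those that passed, or else the 6 of smallest p. These 6 came only from genes averaging 5 CPM or more whose 3 mice shared the direction, without certain provisional names. Up to 4 of smallest p per list were named too. So was a fixed set of cell markers, of which the text gives those its results turn on. The comparison, its gene lists and tests were chosen with earlier results of these data known.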

Additional observations from a re-analysis of the deposited data

Results flagged for a closer look

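One sample, labelled as undetermined for fraction and treatment, held 7484796 gene reads out of 18344703 counted reads and 20867 detected genes. It is listed here because it carries signal and no comparison uses it. With no label for its group, it was compared with nothing.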

How the results depend on the processing

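The count of 0 genes for F2 against F1 in vehicle mice stayed at 0 with RLE size factors, with scaling that left out mitochondrial and abundant genes, with limma voom and with a required log2 fold change. It was 17 with DESeq2, 256 without a filter on low counts and 322 in the F1 and F2 libraries alone, and leaving out a mouse gave 0 to 138 (138 without mouse 1). Within the 6 libraries alone it was 224 with DESeq2, 335 with limma voom and 311 with RLE size factors, leaving out a mouse gave 1972, 65 and 13, and F1 and F2 of 5 mice of both treatments gave 2147, of which 310 were among the 322. These fits of the 6 libraries other than the planned one, and that of 5 mice, were chosen after seeing the data. For the ICZ mice leaving out an animal gave 0 to 2474 genes, and for the difference between treatments the count was 77 without a filter on low counts. For the last step it was 159 without that filter, 36 with DESeq2, 3 with limma voom and 0 to 9 without a mouse, and for the first step against the last 192, 47, 6 and 0 to 21 in the same order. The causes were not tested.

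Fitted with no replicate block, so without pairing by mouse, the count was 0 for vehicle mice in the 15 and in the 6 libraries, 443 for ICZ mice, 0 for the difference between treatments, 1 for the last step and 0 for the first step against the last.

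Of 74 genes followed, 71 kept one sign in each planned setting. The settings reuse the same libraries, and many of these genes were picked by their p-values there, so the shared sign is no support for them. Sis, at 0 in the main fit, was at -0.00 to -0.01 with RLE size factors (-0.0046), other scaling (-0.011), no filter (-0.011) and DESeq2 (-0.0046), and at -0.11 to 0.065 without a mouse. Without a mouse Lyz1 ranged from -0.051 to 0.51 and Vcl from -0.32 to 0.074. Lgr5 and Ascl2 stood at fewer than 15 CPM, and whether depth limited them was not tested.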

Other observations

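Some gene groups outside the main account were also followed from F1 to F2. Of 21 tested genes of xenobiotic metabolism, 14 were lower in all 3 vehicle mice, none was higher in all 3, and 2 fell in the 6 libraries alone, with a median log2 difference of -0.19. Of 13 p53 and apoptosis genes, 9 were lower in all 3 mice, 7 of them with no overlap between the fractions, and 2 fell in the 6 libraries alone. The 22 genes of cholesterol synthesis gave 2 higher and 2 lower in all 3 mice, and the 19 tested genes of PPAR alpha and fatty acid oxidation gave 2 and 5, with no gene of either list called. Among 9 transcripts of the mitochondrial genome 4 were lower in all 3 mice, and none passed. Markers of the proximal small intestine were lower in all 3 mice in 7 of 11 cases and markers of the distal small intestine in 4 of 9.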
